A study of Mus musculus with 9 samples.

Results

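The comparison of MAN@SKI II with vehicle inside the BTBR strain rested on 6 of the series' 9 hippocampal RNA-seq libraries, 3 from treated mice and 3 from Model mice. All genes that passed a filter on low counts were its members, which left 17550 of the 57180 genes listed. The MAN@SKI II group were male BTBR T+ Itpr3tf/J (BTBR) mice, injected into the tail vein with 40 mg/kg of MAN@SKI II per day over 7 days. The Model group were male BTBR mice given vehicle by the same route for 7 days, named as saline in one label field and as PBS in another. The Con group, male C57BL/6J mice given vehicle, entered the fit for its estimate of spread and is given as a further level where a result turns on it. All mice were 5 weeks old when dosing began and 6 weeks old at dissection, which followed behavioural tests. BTBR is an inbred strain used as a model of autism, so every mouse compared here carries its whole genetic background. The labels describe MAN@SKI II as a brain-directed nanomicelle that inhibits S1P. The 9 libraries include no group given the carrier alone, so compound and carrier cannot be told apart.

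Sphingosine-1-phosphate (S1P) is a signalling lipid. Sphingosine kinases make it from sphingosine, exporters release it, G protein-coupled receptors on neurons, glia and endothelium read it, and phosphatases and a lyase remove it. SKI II is known as a small-molecule inhibitor of sphingosine kinases, which act on lipids and not directly on RNA. The series title sets the question as one of an APOE/S1P axis and of synapses, and the comparison asks what the compound did to hippocampal RNA in the strain.

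Few genes separated treated from Model hippocampi. No gene passed edgeR's quasi-likelihood test with Benjamini-Hochberg adjustment at 0.05 (0% of 17550 genes tested). At an unadjusted p under 0.05, 441 genes (2.51%) were higher and 405 (2.31%) lower in MAN@SKI II, and limma-voom also called 0 genes. DESeq2 called 17 of 17191 genes (0.0989%), 10 higher and 7 lower. The 3 values of one group lay wholly above or below those of the other for 812 genes higher in MAN@SKI II (4.63%) and 843 genes lower (4.8%). The genes that DESeq2 called in every fit it was given were Impdh1, Srp72, Usp45 and Pcdh9. The gene group with the lowest values in treated mice, relative to Model, after the few blood genes, was the immediate early genes of neuronal activity.

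The fit also set limits on what could have been missed. The 95% interval of the log2 fold change lay within a 2-fold change either way for 14636 genes (83.4%), and within 1.5-fold for 11205 (63.8%). CPM here are counts scaled to library size, and of the 12311 genes that averaged 5 CPM or more over the BTBR libraries, 11884 (96.5%) had an interval within 2-fold. Only 17 genes at or above 5 CPM combined an unadjusted p under 0.05 with a difference of at least 1 on the log2 scale. The median log2 fold change of all genes tested was 0.0022. Levels here are CPM scaled by normalisation factors, not per gene length, so they compare libraries and not genes. Levels summed over a gene list are the exception, and use library totals without these factors.

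One treated library stood apart. MAN@SKI II 2 carried 9.63% of its counts on mitochondrially encoded genes, against 6.26% to 7.00% in the other 5 BTBR libraries, and sat at 53.1 on the first principal component of these 6 libraries, against -16.1 to -2.85 in the other 5. Its Spearman correlations with the other 5 were 0.982 to 0.985, and those among the other 5 were 0.990 to 0.991. Total counts ran from 14751054 to 17788399 over the 6 libraries. Without MAN@SKI II 2, edgeR called 6 of 17863 genes (0.0336%), namely Usp45, Mid1ip1, Srp72, Fam220a, Impdh1 and Atp6v0c. At an unadjusted p under 0.05, 377 genes (2.11%) were then higher and 390 (2.18%) lower, and DESeq2 called 25 of 15776 (0.158%), 9 of them among the 17. Of the 846 genes at an unadjusted p under 0.05 with all libraries, 384 were so without it as well, all 384 in the same direction. Results below are therefore given with and without this library, except sums over several genes. A log2 fold change in parentheses after another is the value without MAN@SKI II 2. A pair of counts without MAN@SKI II 2 gives the genes higher and lower at an unadjusted p under 0.05. All list counts stand beside 2.51% of all genes higher and 2.31% lower, or 2.11% and 2.18% without MAN@SKI II 2.

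Impdh1, an enzyme of guanine nucleotide synthesis, had the smallest p of the comparison. It measured 30.9, 32.6 and 33.4 CPM in MAN@SKI II 1 to 3, against 48.5, 50.7 and 48.0 CPM in Model 1 to 3. The treated values lay close together, below every Model value, and MAN@SKI II 2 lay between the other treated libraries. The log2 fold change was -0.60 ± 0.07 (SE, n = 3 each), and -0.61 without MAN@SKI II 2. It had a Benjamini-Hochberg adjusted p of 0.0697 in edgeR, and of 0.0119 to 0.567 over 17 alternative edgeR fits. Con libraries held 40.4, 43.1 and 42.9 CPM, between both BTBR groups. On GRCm39 the gene lies on chromosome 6, 29200433 to 29216363. These are bulk tissue samples, in which fewer cells of a type and less RNA per cell cannot be told apart.

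Srp72, a protein of the signal recognition particle that guides new secretory proteins to the endoplasmic reticulum, was also lower in treated mice. Its levels were 68.6, 76.1 and 59.9 CPM in MAN@SKI II 1 to 3, against 105, 104 and 97.2 CPM in Model 1 to 3. All treated values were below all Model values, and close to those of Con, at 61.9, 62.6 and 65.1 CPM. The difference was -0.58 ± 0.09 on the log2 scale, and -0.67 without MAN@SKI II 2, which held the highest treated value. It had a Benjamini-Hochberg adjusted p of 0.188 in edgeR, and of 0.00621 to 0.818 over 17 alternative edgeR fits. Of 25 tested genes of the particle and the translocon, 1 was higher and 2 were lower at an unadjusted p under 0.05 (0 and 1 without MAN@SKI II 2), with a median of -0.09, and -0.04 without MAN@SKI II 2. The other 2 were Sec61a1, a channel subunit of the translocon, with -0.16 ± 0.07 (-0.12), and Srp54c, with 0.18 ± 0.08 (0.17), whose sum with the near-identical Srp54a and Srp54b gave 0.01 ± 0.08.

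Usp45, a deubiquitinase of DNA repair, was higher. Its levels were 67.2, 44.5 and 66.9 CPM in MAN@SKI II 1 to 3, against 32.3, 31.5 and 27.3 CPM in Model 1 to 3. MAN@SKI II 2 was the lowest of the treated libraries and still above every Model library, while Con held 27.2, 27.3 and 26.4 CPM. The log2 fold change was 0.97 ± 0.14, and 1.14 without that library. It had a Benjamini-Hochberg adjusted p of 0.188 in edgeR, and of 0.000173 to 0.818 over 17 alternative edgeR fits.

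Pcdh9, a protocadherin of neuronal contacts, measured 53.0, 69.2 and 51.3 CPM in MAN@SKI II 1 to 3, against 24.1, 27.2 and 32.7 CPM in Model 1 to 3, a difference of 1.04 ± 0.19. Here MAN@SKI II 2 was the highest, the value without it was 0.89, and Con lay above Model at 40.6, 59.3 and 65.0 CPM. Pcdh9 had a Benjamini-Hochberg adjusted p of 0.864 in edgeR, and of 0.0699 to 0.996 over 17 alternative edgeR fits. It was called in 0 of the 17. Impdh1, Srp72, Usp45 and Pcdh9 were the 4 genes that DESeq2 called in all 7 alternative fits it was given as well, those of the 6 BTBR libraries alone and of each BTBR library left out.

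**Figure D1:**
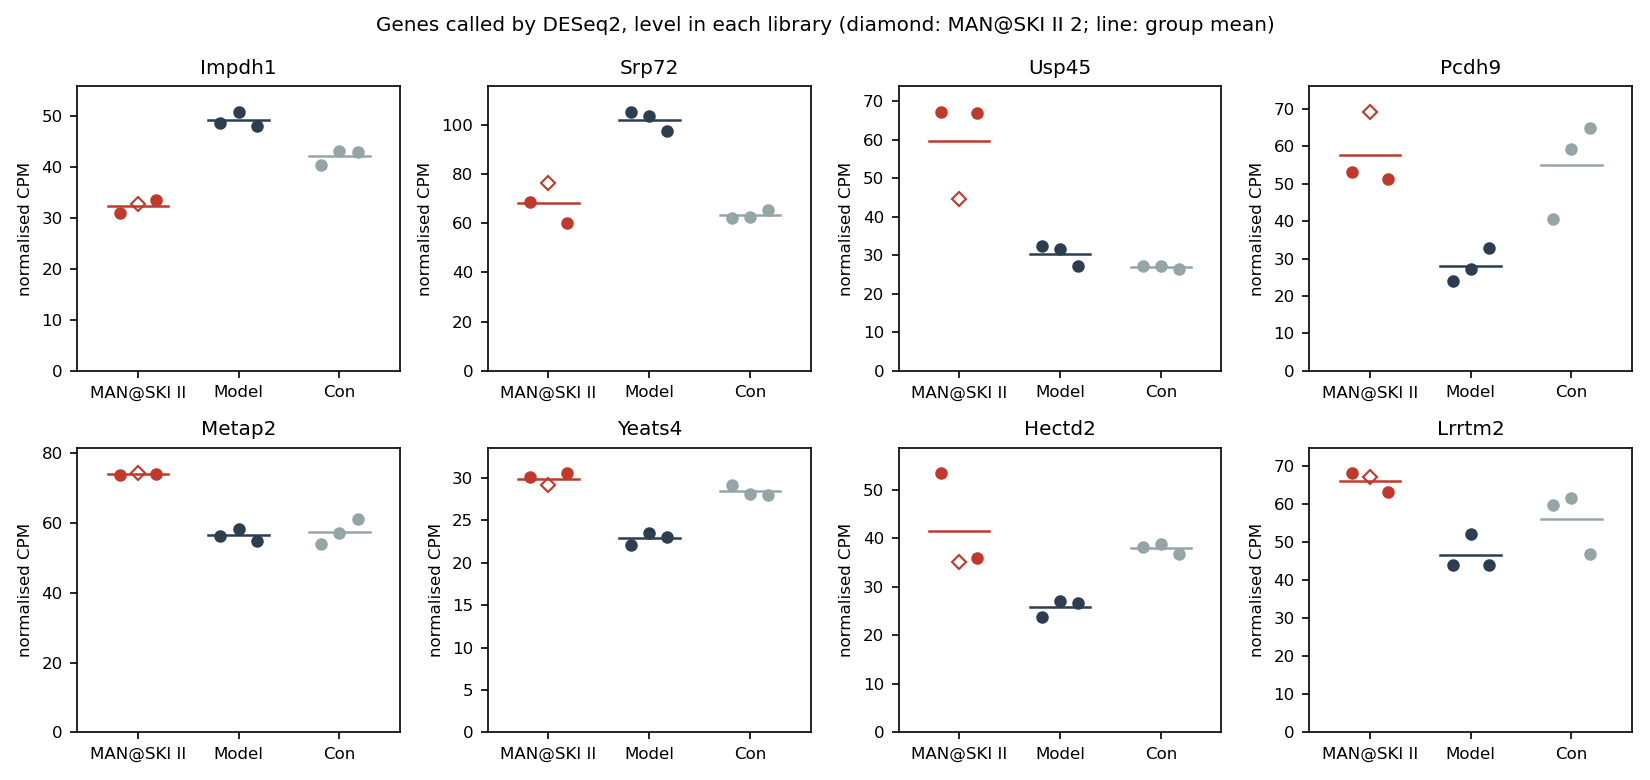
Normalised CPM of 8 genes called by DESeq2 in each library (vertical axes from 0), for MAN@SKI II, Model and Con from left to right, with a line at each group mean and an open diamond for MAN@SKI II 2. Impdh1 holds 30.9 to 33.4 CPM in treated mice and 48.0 to 50.7 CPM in Model, and Usp45 has its lowest treated value, 44.5 CPM, in MAN@SKI II 2.

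Metap2, a methionine aminopeptidase that trims new proteins, had treated values within 1 CPM of each other: 73.6, 74.2 and 74.0 CPM in MAN@SKI II 1 to 3, against 56.2, 58.4 and 54.9 CPM in Model 1 to 3. The groups stood apart by more than the spread within either, with a log2 fold change of 0.39 ± 0.07 (0.39 without MAN@SKI II 2). A near-identical gene, Gm9333, matches it at high identity, and the sum of both gave 0.37 ± 0.07. Yeats4, a reader of acetylated histones, measured 30.1, 29.1 and 30.5 CPM in MAN@SKI II 1 to 3, against 22.1, 23.5 and 23.1 CPM in Model 1 to 3, a difference of 0.39 ± 0.08 that was 0.40 without MAN@SKI II 2. DESeq2 called Yeats4 with all 9 libraries and in 0 of the 7 alternative fits.

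Lrrtm2, a postsynaptic adhesion protein that binds neurexins, was the one member of the synaptic lists among the 17 DESeq2 calls. Its levels were 68.2, 67.3 and 63.4 CPM in MAN@SKI II 1 to 3, against 44.0, 52.2 and 43.9 CPM in Model 1 to 3, and 59.9, 61.6 and 47.1 CPM in Con. The treated values were all above the Model values, by 0.50 ± 0.11 on the log2 scale, and by 0.49 without MAN@SKI II 2, and DESeq2 called the gene in 3 of its 7 alternative fits. Hectd2, a ubiquitin ligase, measured 53.3, 35.2 and 35.8 CPM in MAN@SKI II 1 to 3, against 23.7, 27.0 and 26.6 CPM in Model 1 to 3, a difference of 0.69 ± 0.15 (0.79). MAN@SKI II 1 alone held the high value, and an antisense gene, Hectd2os, overlaps it on the other strand. Whether counting used the strand is not given in the sources used here. Reads of genes that overlap on opposite strands therefore cannot be told apart, such as Hectd2 and Hectd2os, Usp45 and Tstd3, or Lrrtm2 and Ctnna1. The sum of Hectd2 and Hectd2os gave 0.68 ± 0.14.

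Among the other DESeq2 calls were 6 loci that overlap or nearly match other listed genes, Ndor1, Mir8114, Gm21970, Gm49361, Cpt1b and Gm52968. Their difference shrank once the counts were added up. Where a locus is a small part of its sum, as for Mir8114 and Gm52968, the difference shrinks in any case. Such a sum cannot tell whether reads were shared, which was not tested. Ndor1, a flavin reductase of iron-sulfur assembly, is listed under 3 identifiers. Its called identifier, ENSMUSG00000115018, held 1.27, 0.989 and 1.28 CPM in MAN@SKI II 1 to 3, against 17.7, 16.9 and 4.90 CPM in Model 1 to 3. The sum of all 3 identifiers was 45.4, 35.7 and 43.4 CPM in MAN@SKI II 1 to 3, against 42.1, 40.7 and 38.7 CPM in Model 1 to 3, a log2 fold change of 0.04 ± 0.10.

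Mir8114 is a microRNA gene that lies within Glul, the glutamine synthetase gene of astrocytes. It held 32.1, 0.0706 and 29.2 CPM in MAN@SKI II 1 to 3, against 0.0599, 0.0579 and 0.0557 CPM in Model 1 to 3, which is 1 count in each Model library and in MAN@SKI II 2, against 558 and 457 counts in MAN@SKI II 1 and 3. Con 1 and 3 were also at the high level and Con 2 at the low one, so the listed values fell on 2 levels in 2 of the 3 groups. Summed with Glul, the levels were 1160.0, 1128 and 1141 CPM in MAN@SKI II 1 to 3, against 1227, 1137 and 1236 CPM in Model 1 to 3, a log2 fold change of -0.07 ± 0.06.

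Gm21970, which overlaps Il10rb, gave 0.27 ± 0.17 when summed with it, and Gm49361, which overlaps Lats2, gave -0.32 ± 0.15. Cpt1b, a carnitine palmitoyltransferase listed at 0.345, 0.212 and 0.383 CPM in the treated mice, against 3.29, 2.26 and 0.501 CPM in Model, gave 0.18 ± 0.21 when summed with Gm44502. Gm52968 gave 0.09 ± 0.11 with Ganc and Capn3, the genes it overlaps. H2ac18, a histone gene with near-identical copies, was listed at 0 in all 3 treated libraries and in Model 2, and at 13.5 and 12.3 CPM in Model 1 and 3. Con was split as well, with 0, 273 and 0 counts in Con 1 to 3. Its sum with the near-identical copies gave -1.62 ± 0.80. That sum was 6.44, 5.93 and 7.72 CPM in MAN@SKI II 1 to 3, against 28.6, 6.89 and 26.4 CPM in Model 1 to 3. In Con 1 to 3 it was 7.54, 33.3 and 6.97 CPM. A count of 0 in these libraries allows a level of up to 0.169 to 0.203 CPM, counting error only.

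Ywhah, the eta 14-3-3 adaptor protein, has a near-identical copy, Gm12428. Ywhah held 615, 519 and 603 CPM in MAN@SKI II 1 to 3, against 1065, 1069 and 1038 CPM in Model 1 to 3, a log2 fold change of -0.87 ± 0.21 (-0.80), and -0.87 ± 0.21 for the sum. Gm12428 added almost nothing: MAN@SKI II 1 held 615.27 CPM alone and 615.34 CPM summed, and Model 1 held 1065.3 and 1065.5 CPM. The sum could therefore not have moved the difference. The Con libraries split over both levels, with 609 CPM in Con 2 and 1058 and 1131 CPM in Con 1 and 3. Rab7, a GTPase of late endosomes, held 283, 312 and 199.7 CPM in MAN@SKI II 1 to 3, against 192, 124 and 123 CPM in Model 1 to 3, with a log2 fold change of 0.86 ± 0.21 (0.72 without MAN@SKI II 2) and 0.81 ± 0.19 when summed with its pseudogene. Its treated values ranged widely, and MAN@SKI II 3 was only just above Model 1.

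Without MAN@SKI II 2, 3 genes joined Impdh1, Srp72 and Usp45 among the edgeR calls. Atp6v0c, the ring subunit of the vacuolar proton pump, measured 132, 77.1 and 139 CPM in MAN@SKI II 1 to 3, against 177, 180.0 and 173 CPM in Model 1 to 3, and 309, 321 and 315 CPM in Con. Its sum with Atp6v0c-ps2 was 441, 356 and 492 CPM in MAN@SKI II 1 to 3, against 509.5, 521 and 504 CPM in Model 1 to 3, a log2 fold change of -0.25 ± 0.10 against -0.61 ± 0.18 (-0.39) for the gene alone. Fam220a, a STAT3-binding protein, is listed under 2 identifiers: the one called held 1.61, 16.7 and 2.17 CPM in MAN@SKI II 1 to 3, against 24.7, 15.9 and 19.7 CPM in Model 1 to 3, and the sum of both gave -0.10 ± 0.07. Mid1ip1, a regulator of lipogenesis, held 68.6, 23.5 and 80.7 CPM in MAN@SKI II 1 to 3, against 27.7, 28.2 and 27.6 CPM in Model 1 to 3. MAN@SKI II 2 lay near Model in both Mid1ip1 and Fam220a, and the log2 fold changes with and without it were 1.05 and 1.42 for Mid1ip1, and -1.59 and -3.41 for Fam220a.

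**Figure D2:**
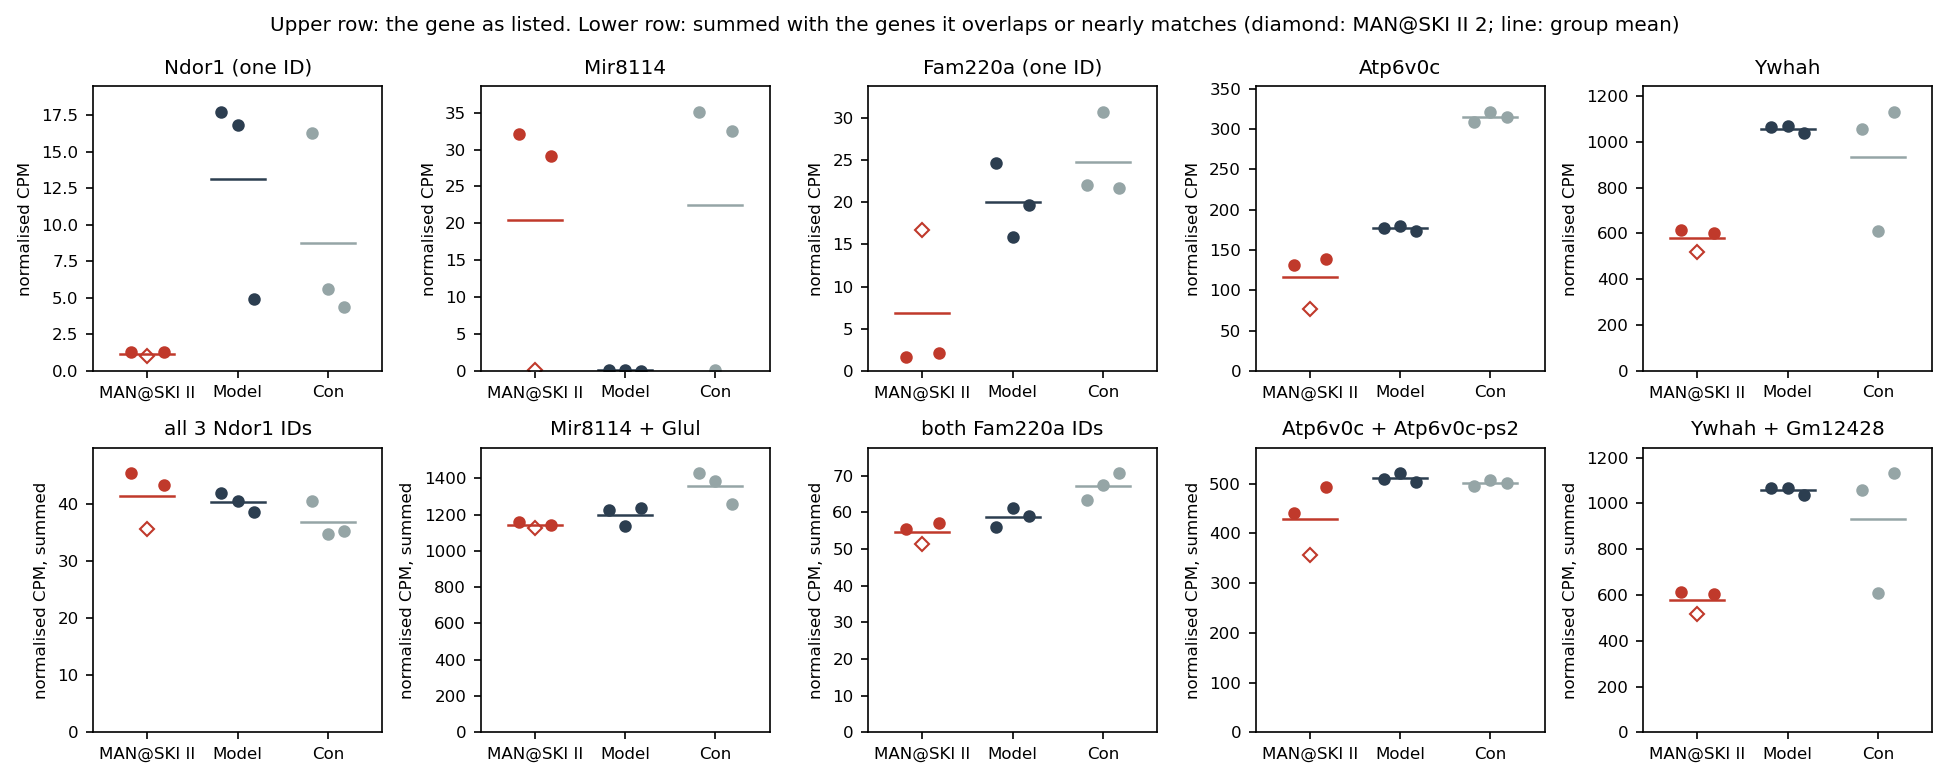
Normalised CPM per library (vertical axes from 0) of 5 genes as listed (upper row) and summed with the genes they overlap or nearly match (lower row), for MAN@SKI II, Model and Con from left to right, with lines at group means and an open diamond for MAN@SKI II 2. In the sums the treated and Model libraries of Ndor1, Mir8114 and Fam220a overlap or lie close together, though Mir8114 is a small part of its sum. Gm12428 adds almost nothing to Ywhah, which stays at 519 to 615 CPM in MAN@SKI II and 1038 to 1069 CPM in Model.

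In all, 213 genes had a mean of at least 5 CPM, groups that did not overlap and an unadjusted p under 0.05 in the same direction with and without MAN@SKI II 2. Of these 93 were higher in treated mice. Those of largest difference not yet named are described next, and none of them passed edgeR's adjusted threshold with all 9 libraries. Eya3, a transcriptional co-activator and phosphatase, held 31.2, 27.0 and 30.8 CPM in MAN@SKI II 1 to 3, against 14.7, 23.3 and 15.6 CPM in Model 1 to 3, a difference of 0.73 ± 0.17 (0.79). Smyd3, a lysine methyltransferase, differed by 0.66 ± 0.15 (0.60), and Pip5k1a, a kinase that makes the lipid PIP2, by 0.62 ± 0.18 (0.75), which edgeR called in the fit of 5 BTBR libraries, without Con and MAN@SKI II 2. B3galnt2, a glycosyltransferase of dystroglycan, and Gemin8, of the complex that assembles splicing particles, differed by 0.80 ± 0.23 (0.73) and 0.79 ± 0.19 (0.71).

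Among the genes lower in treated mice, Ednrb, the endothelin B receptor, held 15.8, 16.3 and 18.6 CPM in MAN@SKI II 1 to 3, against 25.6, 30.2 and 26.6 CPM in Model 1 to 3. All treated values lay below all Model values, with a difference of -0.70 ± 0.19 (-0.68 without MAN@SKI II 2), though Con spread from 16.5 to 30.5 CPM. Acvrl1, an endothelial receptor of the TGF-beta family, differed by -0.71 ± 0.21 (-0.69), and Arhgef19, a guanine nucleotide exchange factor, by -0.61 ± 0.12 (-0.62). Pigb, an enzyme of the GPI anchor, differed by -0.63 ± 0.21 (-0.70), and by 0.05 ± 0.11 once summed with Ccpg1, with which it shares sequence. Gm16701, a predicted gene at under 2 CPM in every library, was among the 5 smallest edgeR p-values, with 1.76 ± 0.32 (1.69), and its sum with the overlapping identifier of the same name gave 0.19 ± 0.49.

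Immediate early genes are switched on within minutes by synaptic activity and calcium entry, without new protein synthesis, and many encode transcription factors. In hippocampus their RNA follows recent behaviour and handling. Of the 21 tested, 12 were lower and 0 higher in MAN@SKI II at an unadjusted p under 0.05, beside 2.31% and 2.51% of all genes. None passed the adjusted threshold of edgeR, DESeq2 or limma-voom. In 7 of the 21 all treated values lay below all Model values, beside 4.8% of all genes. A negative log2 fold change was found in 18 of the 21, beside 8666 of 17550 genes tested. The median was -0.41, against 0.0022 for all genes.

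The list was lower with and without MAN@SKI II 2. Without it the median was -0.36, 18 of 21 were still negative, and 6 were lower and 0 higher at an unadjusted p under 0.05, beside 2.18% and 2.11% of all genes. MAN@SKI II 2 was the lowest of the 6 BTBR libraries in 13 of the 21 genes, and Model 2 the highest of the 6 in 14. Leaving out each BTBR library in turn moved the median between -0.56 and -0.36. Sums over a list use library totals without normalisation factors. MAN@SKI II 2 had the lowest factor, 0.960, so its sums read low beside its single-gene levels. The summed level of the 21 genes was 1107, 1030 and 1264 CPM in MAN@SKI II 1 to 3, against 1297, 1514 and 1363 CPM in Model 1 to 3, and 1164, 1313 and 1284 CPM in Con 1 to 3. The summed Con levels thus reached into the ranges of both BTBR groups.

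Among the transcription factors, Fos had the lowest log2 fold change. It held 6.38, 4.66 and 11.9 CPM in MAN@SKI II 1 to 3, against 14.8, 21.4 and 14.3 CPM in Model 1 to 3. MAN@SKI II 3 came closest to Model, and the difference was -1.14 ± 0.33, with a 95% interval of -1.89 to -0.38, and -0.89 without MAN@SKI II 2. Nr4a1, a nuclear receptor, measured 63.0, 50.5 and 74.8 CPM in MAN@SKI II 1 to 3, against 87.3, 104 and 89.8 CPM in Model 1 to 3, and its relative Nr4a2 43.8, 38.8 and 35.4 CPM in MAN@SKI II 1 to 3, against 48.7, 60.9 and 47.4 CPM in Model 1 to 3. Neither overlapped between the groups, and the differences were -0.58 ± 0.14 (-0.44) and -0.41 ± 0.11 (-0.40). Egr1, a zinc finger factor, held 110.3, 108 and 133 CPM in MAN@SKI II 1 to 3, against 137, 175 and 157 CPM in Model 1 to 3, and Junb, a partner of Fos, 65.5, 44.7 and 74.9 CPM in MAN@SKI II 1 to 3, against 81.2, 94.5 and 85.8 CPM in Model 1 to 3. The differences were -0.42 ± 0.12 for Egr1 and -0.50 ± 0.16 for Junb, and without MAN@SKI II 2 they were -0.36 and -0.31.

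Other members of the list act outside transcription. Dusp1, a phosphatase that switches off MAP kinases, held 12.1, 14.1 and 20.2 CPM in MAN@SKI II 1 to 3, against 28.7, 21.4 and 23.7 CPM in Model 1 to 3, a difference of -0.67 ± 0.18 (-0.60 without MAN@SKI II 2). Ergic1 overlaps it on the other strand. Arc, which drives removal of AMPA receptors from synapses, measured 101, 95.4 and 143 CPM in MAN@SKI II 1 to 3, against 141, 200.2 and 160.1 CPM in Model 1 to 3. MAN@SKI II 3 reached the level of Model 1 there, so the groups overlapped, and the difference was -0.56 ± 0.17 (-0.45). The direction was not shared by every member: Jun had 0.09 ± 0.06 (0.12), Nr4a3 0.02 ± 0.10 (-0.04) and Egr3 0.00046 ± 0.10 (-0.03).

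**Figure D3:**
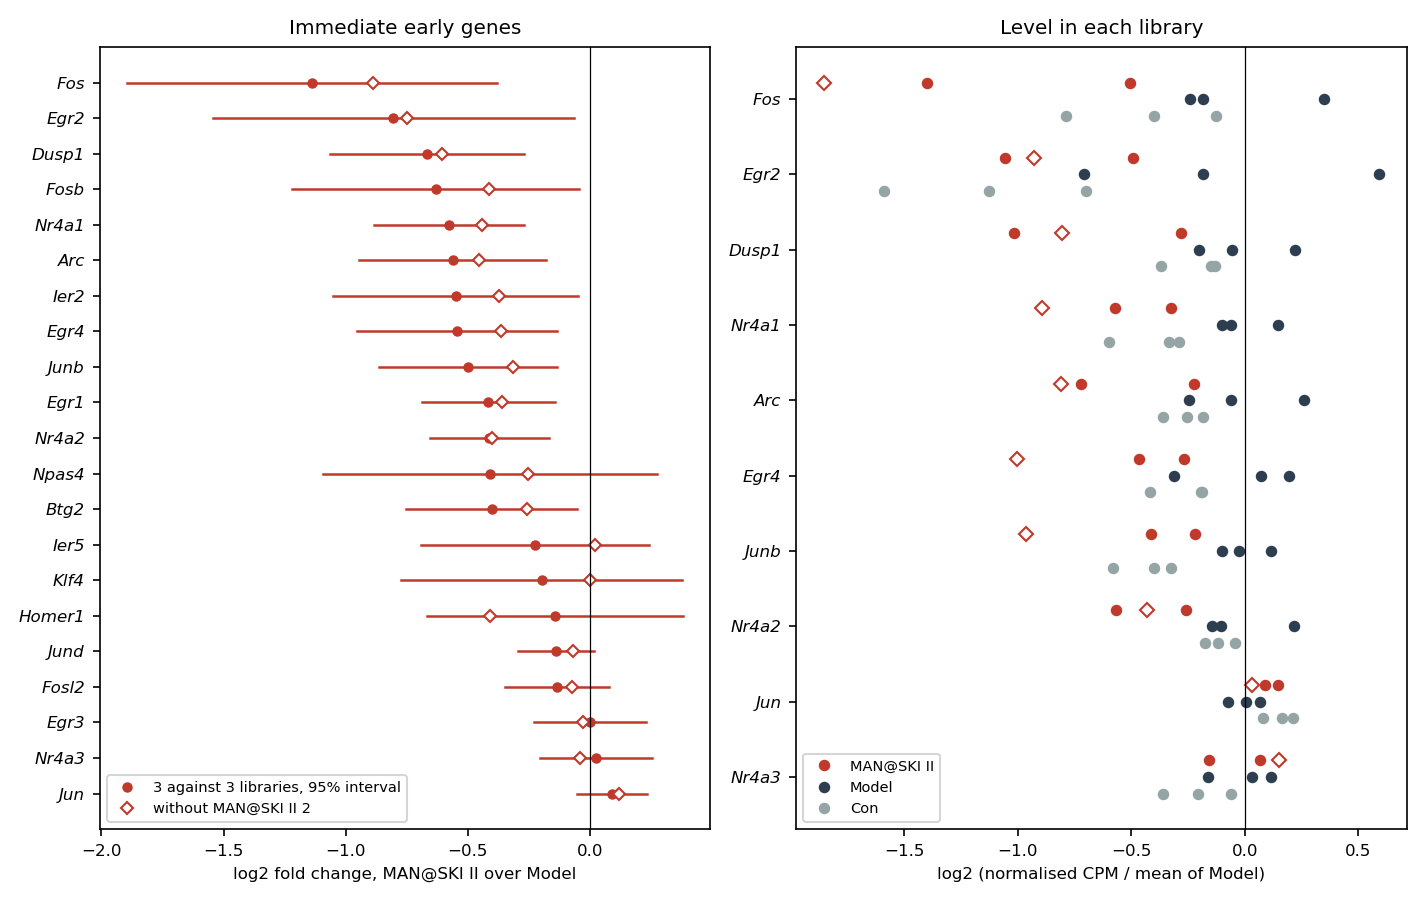
Left, log2 fold change of MAN@SKI II over Model for the 21 immediate early genes, with 95% intervals (filled circles) and without MAN@SKI II 2 (open diamonds). Right, level of 10 of them in each library as log2 of normalised CPM over the Model mean, with MAN@SKI II above Model and Con in each row and MAN@SKI II 2 as an open diamond; 18 of the 21 lie below 0 on the left, and Jun, Nr4a3 and Egr3 lie at or above it.

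Promoters of many immediate early genes are known to be read by CREB, through the cAMP response element, and by SRF, through the CArG box. The 250 bases before the start are shown for 4 of the 7 genes whose values did not overlap between the groups. No further rule picked the 4, and Nr4a2, Egr1 and Btg2, which did not overlap either, are not shown. The sequences come from RefSeq on GRCm38.p6, and capitals mark the element TGACGTCA or its half-site TGACG on either strand. The window of Fos is chr12:85473640-85473889 (+ strand), that of Junb chr8:84978749-84978998 (- strand), that of Nr4a1 chr15:101266596-101266845 (+ strand) and that of Dusp1 chr17:26508473-26508722 (- strand).
Fos: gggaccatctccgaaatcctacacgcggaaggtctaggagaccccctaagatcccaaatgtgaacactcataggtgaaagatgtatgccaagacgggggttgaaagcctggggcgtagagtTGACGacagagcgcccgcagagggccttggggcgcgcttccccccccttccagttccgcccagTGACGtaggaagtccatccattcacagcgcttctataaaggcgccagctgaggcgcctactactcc
Junb: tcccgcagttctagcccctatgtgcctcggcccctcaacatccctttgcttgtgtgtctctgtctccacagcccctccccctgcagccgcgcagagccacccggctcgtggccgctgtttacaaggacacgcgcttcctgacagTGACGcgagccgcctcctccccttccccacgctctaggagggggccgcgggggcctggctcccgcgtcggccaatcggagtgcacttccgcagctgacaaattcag
Nr4a1: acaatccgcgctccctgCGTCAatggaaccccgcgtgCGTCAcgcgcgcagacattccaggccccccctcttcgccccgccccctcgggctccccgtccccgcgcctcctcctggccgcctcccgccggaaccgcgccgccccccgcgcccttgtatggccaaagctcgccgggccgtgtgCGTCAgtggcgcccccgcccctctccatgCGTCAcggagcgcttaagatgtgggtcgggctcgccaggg
Dusp1: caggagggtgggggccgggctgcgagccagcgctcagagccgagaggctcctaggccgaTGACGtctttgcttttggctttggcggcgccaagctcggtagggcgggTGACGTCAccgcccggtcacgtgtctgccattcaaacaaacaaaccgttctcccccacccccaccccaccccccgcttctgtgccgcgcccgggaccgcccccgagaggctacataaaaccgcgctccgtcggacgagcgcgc

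Of the 21 genes, 17 matched the promoter table, some with more than 1 start, and a gene counts where any of its windows holds the letters. The full element TGACGTCA was found in 2 of the 17, Dusp1 and Btg2, beside 1.77% of 27025 genes. The half-site TGACG, searched on both strands and overlapping the full element, was found in 13 of the 17, beside 19.8% of genes, and the CArG box in 1, Egr2, beside 1.62%. Nr4a3 had 4 half-sites, as did Nr4a1 and Nr4a2. These are matches of letters in 250 bases and not measured sites.

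Genes of the later waves of the response were counted too. Of 23 delayed activity genes, 0 were higher and 0 lower at an unadjusted p under 0.05, with a median of -0.04 (0 and 1 without MAN@SKI II 2, median -0.05). One of them is Bdnf, a growth factor of synapses, which held 29.2, 36.5 and 33.6 CPM in MAN@SKI II 1 to 3, against 32.3, 37.8 and 36.9 CPM in Model 1 to 3 and had a difference of -0.11 ± 0.11 (-0.18), with a 95% interval of -0.34 to 0.12. Of 15 genes that answer to ERK, 2 were lower and 0 higher, beside 2.31% and 2.51% of all genes. Dusp6, a phosphatase of ERK, held 55.0, 58.1 and 62.2 CPM in MAN@SKI II 1 to 3, against 66.4, 92.6 and 67.9 CPM in Model 1 to 3, a difference of -0.37 ± 0.14 (-0.37). Dusp5, another, differed by -0.27 ± 0.10 (-0.23). The median of the 15 was -0.08 (0 and 2 without MAN@SKI II 2, median -0.07).

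No gene of the S1P pathway passed an unadjusted p of 0.05 with all libraries. Of the 14 tested, 0 were higher and 0 lower at an unadjusted p under 0.05, and the median was 0.01 (1 and 0 without MAN@SKI II 2, median 0.03). S1pr4 fell under the count filter. Sphk2, the main sphingosine kinase of brain, held 30.4, 28.9 and 34.0 CPM in MAN@SKI II 1 to 3, against 32.2, 34.0 and 31.6 CPM in Model 1 to 3, a difference of -0.07 ± 0.09 (-0.02) with an interval of -0.26 to 0.13 on the log2 scale. Sphk1, the other kinase, held 1.61, 0.918 and 1.72 CPM in MAN@SKI II 1 to 3, against 1.44, 1.22 and 1.45 CPM in Model 1 to 3. At that depth its interval of -0.90 to 1.02 covers changes of 1.5-fold both ways, and the value was 0.28 without MAN@SKI II 2.

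Other enzymes remove S1P. Sgpl1, the lyase, held 38.6, 32.9 and 45.1 CPM in MAN@SKI II 1 to 3, against 39.0, 36.2 and 42.7 CPM in Model 1 to 3, a difference of -0.01 ± 0.11 (0.09) with an interval of -0.26 to 0.23. The phosphatases Sgpp1 and Sgpp2 had 0.08 ± 0.07 (0.05) and 0.10 ± 0.17 (0.03). Of the exporters, Spns2 of endothelium had -0.08 ± 0.10 (0.04), and Mfsd2b of blood cells had 0.50 ± 0.27 (0.71, the 1 gene past an unadjusted p of 0.05 without MAN@SKI II 2), the highest of the list. S1pr1, a receptor of astrocytes and endothelium, held 117, 128 and 124 CPM in MAN@SKI II 1 to 3, against 113, 124 and 126 CPM in Model 1 to 3, a difference of 0.03 ± 0.08 (-0.0027) with an interval of -0.15 to 0.21. The receptors S1pr2, S1pr3 and S1pr5 had -0.04 ± 0.30 (-0.02), 0.05 ± 0.10 (-0.00012) and -0.17 ± 0.10 (-0.11). Compound action on the kinase protein, or on S1P itself, was not measured by these libraries.

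Upstream of sphingosine, 28 genes of ceramide and sphingomyelin metabolism had a median of 0.02 (0.01 without MAN@SKI II 2), with 0 higher and 1 lower (0 and 0 without MAN@SKI II 2). The 1 was Sptlc2, a subunit of the enzyme that begins sphingolipid synthesis, with 40.9, 36.3 and 35.2 CPM in MAN@SKI II 1 to 3, against 41.9, 43.5 and 41.7 CPM in Model 1 to 3, a difference of -0.18 ± 0.08 (-0.15). Its partner Sptlc1 had -0.14 ± 0.08 (-0.14). Degs1, the desaturase that completes ceramide, was the highest of the list at 0.41 ± 0.35 (0.56). It held 68.4, 35.0 and 32.9 CPM in MAN@SKI II 1 to 3, against 31.4, 37.3 and 34.4 CPM in Model 1 to 3. Con 1 to 3 held 74.2, 70.1 and 38.1 CPM. Of the BTBR libraries MAN@SKI II 1 alone was high, and Con 1 and Con 2 were on that level too. Degs1 is one of the genes on 2 levels described in the closing section. Cers1, a ceramide synthase of neurons, had 0.28 ± 0.23 (-0.09).

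**Figure D4:**
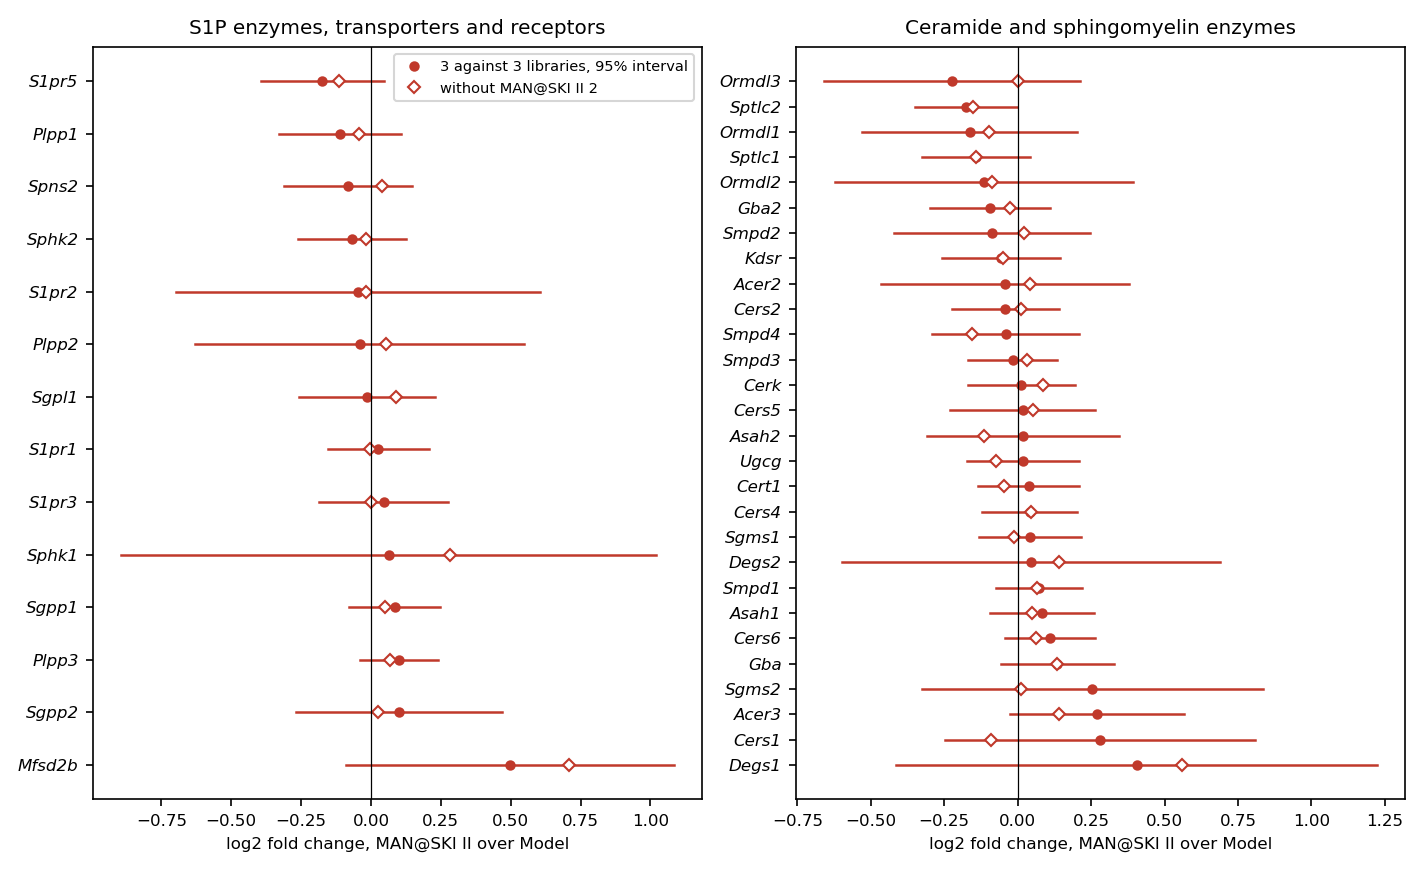
Log2 fold change of MAN@SKI II over Model with 95% intervals (filled circles) and without MAN@SKI II 2 (open diamonds), for 14 genes of the S1P pathway (left) and 28 of ceramide and sphingomyelin metabolism (right), sorted by value. The interval of Sptlc2 alone leaves out 0, at its edge, and those of Sphk1 and Degs1 are wide.

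Apoe, the lipid carrier named in the series title, held 1135, 744 and 1331 CPM in MAN@SKI II 1 to 3, against 956, 1107 and 1114 CPM in Model 1 to 3, and 749, 1053 and 953 CPM in Con. MAN@SKI II 2 was lower than every other BTBR library and MAN@SKI II 3 the highest, so the interval of -0.48 to 0.51 was wide, and the value was 0.02 with all libraries and 0.22 without MAN@SKI II 2. Of 17 lipoprotein genes and receptors 0 were higher and 0 lower (0 and 0 without MAN@SKI II 2), and Clu, another brain apolipoprotein, had 0.10 ± 0.05 (0.08). Of 23 genes of sterol synthesis 1 was higher, Lss at 0.25 ± 0.10 (0.20), and 1 lower, Pmvk at -0.31 ± 0.14 (-0.15), whose lowest value was that of MAN@SKI II 2. The counts for sterol synthesis were 0 and 0 without MAN@SKI II 2.

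Most synaptic genes had narrow intervals around 0. Among 26 postsynaptic scaffolds and kinases, 25 had an interval within 2-fold, and 2 were higher and 0 lower (2 and 0 without MAN@SKI II 2): Dlgap1, a scaffold beneath glutamate receptors, held 545, 626 and 509 CPM in MAN@SKI II 1 to 3, against 505, 478 and 491 CPM in Model 1 to 3, a difference of 0.19 ± 0.07, and its relative Dlgap4 differed by 0.20 ± 0.07. Without MAN@SKI II 2, which was the highest library for both, the values were 0.10 and 0.11. Dlg4, which encodes PSD-95, had a difference of 0.12 ± 0.09 (0.08) with an interval of -0.07 to 0.31, and Syn1, a vesicle protein, of 0.14 ± 0.08 (0.04) with an interval of -0.03 to 0.32. Among 34 vesicle and release genes 0 were higher and 0 lower (0 and 0 without MAN@SKI II 2), with a median of -0.01.

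Of 24 ionotropic glutamate receptor genes 1 was higher, the AMPA subunit Gria4 at 0.16 ± 0.07 (0.12), with counts of 0 and 0 without MAN@SKI II 2, and of 10 metabotropic ones 0 (0 and 0 without MAN@SKI II 2). Of 20 receptor genes for GABA and glycine 1 was higher, Glrb, the glycine receptor beta subunit, with 165, 179.5 and 156 CPM in MAN@SKI II 1 to 3, against 135, 147 and 145 CPM in Model 1 to 3. The difference of Glrb was 0.23 ± 0.07 (0.18), and the list counts were 1 and 0 without MAN@SKI II 2. Of 28 adhesion genes 1 was higher, Lrrtm2 (1 and 1 without MAN@SKI II 2). Among 31 potassium channel genes 1 was lower, Kcnip2, an accessory subunit, at -0.17 ± 0.06 (-0.13), with counts of 2 and 4 without MAN@SKI II 2, and among 23 of sodium and calcium channels 1 was lower, Cacna1g at -0.17 ± 0.07 (-0.13), with counts of 0 and 0 without MAN@SKI II 2. Each of the 8 synaptic and channel lists had a median within 0.1 of 0, as did 37 of all 48 lists (38 without MAN@SKI II 2). In 17 of the 48 the median changed sign without that library, all with a main median of at most 0.0847 in size.

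Markers of the cell types in the tissue were compared in the same way. The 15 dentate granule genes summed to 812, 926 and 771 CPM in MAN@SKI II 1 to 3, against 864, 692 and 822 CPM in Model 1 to 3, and the 20 pyramidal cell genes to 2158, 2213 and 2195 CPM in MAN@SKI II 1 to 3, against 2205, 2263 and 2143 CPM in Model 1 to 3, so hippocampal markers were present in every library. Of the dentate genes 1 was higher, Sema5b at 0.32 ± 0.14 (0.45), with counts of 2 and 0 without MAN@SKI II 2. Of the pyramidal genes 1 was higher, Cpne4 at 0.24 ± 0.09 (0.12), and 2 lower, Fibcd1 at -0.24 ± 0.09 (-0.19) and Pou3f1 at -0.22 ± 0.10 (-0.15), with counts of 1 and 1 without MAN@SKI II 2. Of 20 interneuron genes 1 was higher, the transcription factor Lhx6, with 21.4, 19.8 and 19.5 CPM in MAN@SKI II 1 to 3, against 17.7, 16.6 and 16.0 CPM in Model 1 to 3. The difference of Lhx6 was 0.27 ± 0.10 (0.29), and the list counts were 1 and 0 without MAN@SKI II 2. Of 21 genes of newborn neurons and division 1 was lower, Igfbpl1 at -0.67 ± 0.30 (-0.61), with counts of 0 and 1 without MAN@SKI II 2.

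Endothelial genes had mostly negative values. Of 22, 4 were lower and 0 higher, beside 2.31% and 2.51% of all genes. Without MAN@SKI II 2, 2 were lower, beside 2.18% of all genes. Negative values were found in 20 of the 22, beside 8666 of 17550 genes tested, and in 17 without MAN@SKI II 2. The median was -0.17 (-0.12 without MAN@SKI II 2). Mfsd2a, a lipid transporter of the blood-brain barrier, held 20.3, 21.3 and 20.3 CPM in MAN@SKI II 1 to 3, against 26.3, 26.3 and 26.3 CPM in Model 1 to 3. Its 3 treated values lay close together below the equally close Model values, a difference of -0.35 ± 0.10 (-0.37 without MAN@SKI II 2). Egfl7, a secreted factor of endothelium, differed by -0.36 ± 0.15, and -0.20 without MAN@SKI II 2. The list's summed level was 783, 718 and 833 CPM in MAN@SKI II 1 to 3, against 808, 873 and 901 CPM in Model 1 to 3.

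Of 22 myelin genes, 4 were lower and 0 higher at an unadjusted p under 0.05, beside 2.31% and 2.51% of all genes, with a median of -0.14. When MAN@SKI II 2 was left out 5 were lower, beside 2.18% of all genes, and the median was -0.06. Mal, a protein of the myelin sheath, held 193, 189 and 205 CPM in MAN@SKI II 1 to 3, against 228, 235 and 228 CPM in Model 1 to 3, a difference of -0.23 ± 0.08 (-0.21). Mobp, another, held 514, 476 and 481 CPM in MAN@SKI II 1 to 3, against 552, 575 and 540.0 CPM in Model 1 to 3, and 1227, 1218 and 1049 CPM in Con, a difference of -0.18 ± 0.07 (-0.16). Of 19 progenitor genes 3 were lower and 0 higher, beside 2.31% and 2.51% of all genes (0 and 3 without MAN@SKI II 2): Ednrb, Neu4, a sialidase, at -0.44 ± 0.13 (-0.31), and Gpr17 at -0.40 ± 0.17 (-0.25), with their median at -0.02.

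Of 20 astrocyte genes 0 were higher and 0 lower (0 and 0 without MAN@SKI II 2). Of 24 reactive astrocyte genes 2 were higher and 1 lower (3 and 1 without MAN@SKI II 2): C3, a complement protein with few counts, held 0.978, 2.05 and 1.60 CPM in MAN@SKI II 1 to 3, against 0.419, 0.753 and 0.501 CPM in Model 1 to 3, a difference of 1.44 ± 0.37 (1.19), S100a10 differed by 0.49 ± 0.15 (0.43) and Psmb8 by -0.77 ± 0.25 (-0.56). Of 22 microglial genes 1 was lower, the complement subunit C1qb, with 15.9, 13.6 and 16.7 CPM in MAN@SKI II 1 to 3, against 18.9, 18.0 and 20.2 CPM in Model 1 to 3, and 35.2, 35.7 and 32.7 CPM in Con, a difference of -0.30 ± 0.10 (-0.22), and the list counts were 0 and 1 without MAN@SKI II 2. Of 18 activated microglial genes 1 was higher, Gpnmb at 0.46 ± 0.18 (0.57), with counts of 2 and 0 without MAN@SKI II 2. Of 19 genes of mural cells and fibroblasts 1 was lower, Abcc9 at -0.27 ± 0.11 (-0.34), with counts of 0 and 1 without MAN@SKI II 2. Of 21 genes of neighbouring tissue (striatum, thalamus and deep cortex), 1 was higher, the dopamine receptor Drd1 at 0.48 ± 0.20 (0.53), and 1 lower, Nr4a2, given above (1 and 1 without MAN@SKI II 2).

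Blood and ventricle genes marked single libraries. The 7 erythrocyte genes had a median of -0.79, and -0.33 without MAN@SKI II 2, which was the lowest of the 6 BTBR libraries in 7 of 7, and 0 of the 7 passed an unadjusted p of 0.05 with or without it. Ttr, the transthyretin of choroid plexus, held 17.0, 19.3 and 313 CPM in MAN@SKI II 1 to 3, against 13.5, 257 and 12.9 CPM in Model 1 to 3, so MAN@SKI II 3 and Model 2 each held far more than the others. Of 17 choroid plexus genes and 15 ependymal genes, 0 were higher and 0 lower, with and without MAN@SKI II 2, and only 2 and 8 had an interval within 2-fold. The choroid plexus genes summed to 159.6, 163 and 494 CPM in MAN@SKI II 1 to 3, against 132, 475 and 143 CPM in Model 1 to 3. What these cells added to other values was not tested.

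**Figure D5:**
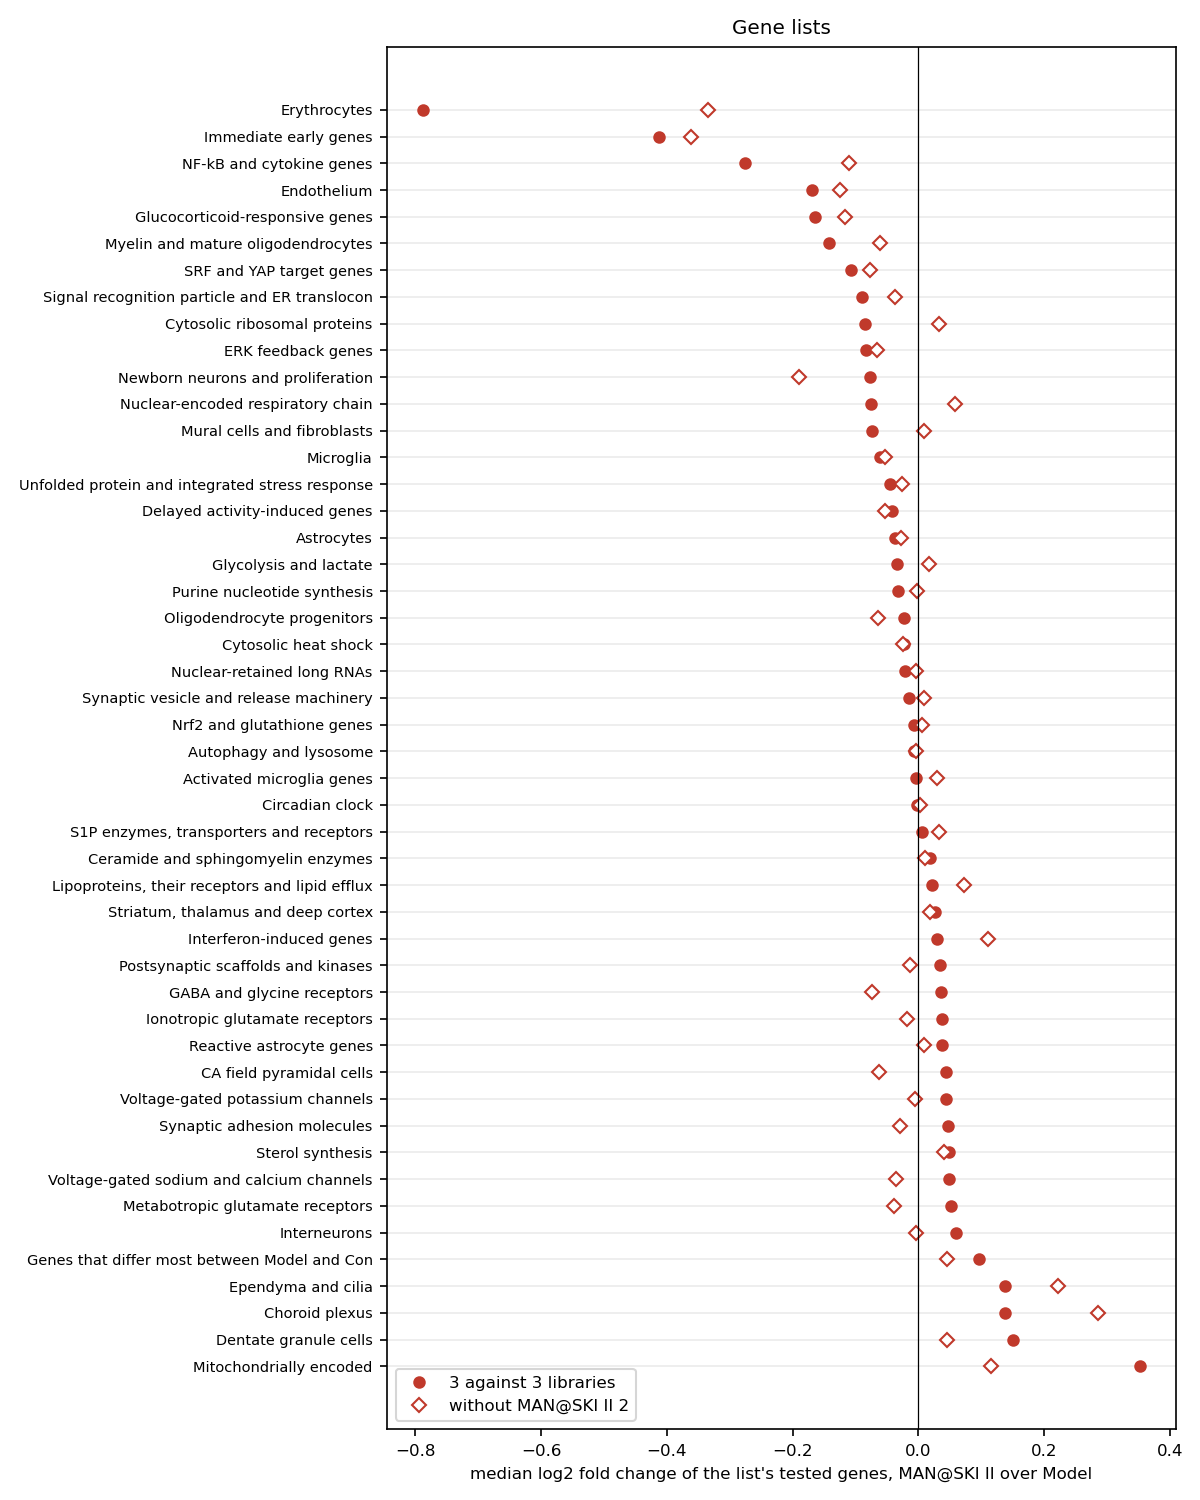
Median log2 fold change of MAN@SKI II over Model for each of 48 gene lists (filled circles) and the same genes without MAN@SKI II 2 (open diamonds), sorted by value. Most medians lie within 0.1 of 0, the immediate early genes stay at -0.41 and -0.36, and the mitochondrially encoded genes lie at 0.35 with all libraries and 0.12 without MAN@SKI II 2.

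Mitochondrially encoded genes were the list with the highest median, and its size depended on 1 library. Of 13, 6 were higher and 0 lower at an unadjusted p under 0.05, beside 2.51% and 2.31% of all genes, with a median of 0.35. Without MAN@SKI II 2, 8 were higher, beside 2.11% of all genes, and the median was 0.12. mt-Nd3, a subunit of complex I, held 175, 227 and 182 CPM in MAN@SKI II 1 to 3, against 155, 151 and 151 CPM in Model 1 to 3, and 225, 211 and 200.5 CPM in Con. MAN@SKI II 2 was the highest treated library, the other 2 were also above Model, and the difference was 0.35 ± 0.09 (0.23 without it). mt-Nd1, another complex I subunit, had 0.28 ± 0.11, and 0.11 without it.

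Nuclear genes of the same complexes were low in that library. Of 50 tested nuclear genes of the respiratory chain 0 were higher and 0 lower (1 and 0 without MAN@SKI II 2), and MAN@SKI II 2 was the lowest of the 6 in 44 of 50. Their median of -0.08 became 0.06 without it. Of 45 cytosolic ribosomal genes 2 were lower and 0 higher, Rps6 and Rpl15 (2 and 1 without MAN@SKI II 2), with MAN@SKI II 2 the lowest of 6 in 32, and their median of -0.08 became 0.03. Rps6 at -0.51 ± 0.14 (-0.42) and Rpl15 at -0.24 ± 0.09 (-0.16) both have pseudogene copies, with which the sums gave 0.03 ± 0.06 and -0.13 ± 0.08.

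Stress and signalling lists held few members past an unadjusted p of 0.05. Of 26 genes of the unfolded protein and integrated stress response 0 were (0 and 0 without MAN@SKI II 2), and of 22 heat shock genes 1 was lower, Dnaja1, at -0.19 ± 0.09 (-0.09), with counts of 0 and 0 without MAN@SKI II 2. Of 19 interferon-induced genes 0 were (1 and 0 without MAN@SKI II 2). Of 27 genes of Nrf2 and glutathione 2 were higher, Gstm1, a glutathione transferase, with 156, 183 and 153 CPM in MAN@SKI II 1 to 3, against 142, 129.8 and 125 CPM in Model 1 to 3, a difference of 0.31 ± 0.08 (0.22), and Tkt at 0.24 ± 0.09 (0.16), and 1 was lower, Slc3a2 at -0.21 ± 0.09 (-0.15), with counts of 1 and 1 without MAN@SKI II 2. Of 20 glucocorticoid-responsive genes 1 was lower, with a median of -0.16 (0 and 1 without MAN@SKI II 2, median -0.12). That gene, Nfkbia, the inhibitor of NF-kB, held 17.2, 16.5 and 16.0 CPM in MAN@SKI II 1 to 3, against 18.6, 18.4 and 23.1 CPM in Model 1 to 3, a difference of -0.28 ± 0.11 (-0.27). Of 13 NF-kB and cytokine genes tested, it and the chemokine Cxcl12, with -0.35 ± 0.15 (-0.22), were lower, beside 2.31% of all genes (0 and 2 without MAN@SKI II 2). Their median of -0.28 became -0.11 without MAN@SKI II 2, and 9 further cytokine genes, among them Tnf, Il1b and Il6, fell under the count filter.

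Of 20 target genes of SRF and YAP 2 were lower and 0 higher, beside 2.31% and 2.51% of all genes. Amotl2, a YAP target, held 14.9, 15.7 and 18.0 CPM in MAN@SKI II 1 to 3, against 24.2, 20.04 and 20.1 CPM in Model 1 to 3, a difference of -0.40 ± 0.11 (-0.38), and Ccn2, another, of -0.37 ± 0.17 (-0.42). The median of the 20 was -0.11 (0 and 3 without MAN@SKI II 2, median -0.08). Of 35 autophagy and lysosome genes 1 was lower, Ctsl, the protease cathepsin L, with 59.7, 59.6 and 59.5 CPM in MAN@SKI II 1 to 3, against 73.6, 87.4 and 68.5 CPM in Model 1 to 3. The treated values of Ctsl agreed to within 1 CPM, and the difference was -0.36 ± 0.09 (-0.36), with Mitf, a regulator of lysosomal genes, the 1 higher at 0.75 ± 0.30 (0.57), with counts of 1 and 1 without MAN@SKI II 2. Of 19 clock genes 1 was higher, Clock itself at 0.33 ± 0.10 (0.29), with counts of 1 and 1 without MAN@SKI II 2, and of 22 genes of purine synthesis 1 was lower, Impdh1 (0 and 1 without MAN@SKI II 2).

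The 18 genes taken from the widest gaps between Model and Con share the Model libraries with the treatment comparison, so the values are set side by side only. Of the 18, 1 was higher in treated mice, Lgr6, with 20.01, 21.1 and 22.2 CPM in MAN@SKI II 1 to 3, against 19.3, 17.2 and 16.1 CPM in Model 1 to 3, beside 3.45, 3.53 and 3.62 CPM in Con. The 2 that were lower, C1qb and Mobp, are given above. The difference of Lgr6 was 0.27 ± 0.10 (0.27), and the median of the 18 was 0.10 (1 and 2 without MAN@SKI II 2, median 0.05).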

How the data were processed

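Hippocampal mRNA was sequenced from 9 libraries, 3 per group, as 150 bp paired reads on an Illumina instrument after oligo-dT selection, per the series' design text and the labels' protocols. The deposited table gives whole-number read counts per gene, made by the authors. The submitters' processing notes name Bowtie2, HISAT2 2.0.4, StringTie 1.3.3b, edgeR 3.2.0 and GRCm39, with no role, and which program counted reads, by strand or not, is not given in the sources used here. The authors also deposited FPKM values, which were not used. Genes with no symbol (523) stayed in the fit.

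Counts were filtered with filterByExpr, scaled by TMM (factors 0.960 to 1.01) and tested with edgeR 4.0.16 (quasi-likelihood F test, robust, all 9 libraries in 1 fit on group) with Benjamini-Hochberg adjustment in R 4.3.3. In the text, ± is the standard error of a log2 fold change of MAN@SKI II over Model, with n = 3 each, and 95% intervals come from that error. DESeq2 1.42.0 and limma-voom (limma 3.58.1) were alternatives, with other fits given in the closing section. DESeq2 gave no adjusted p for 359 genes. The scripts were tested on simulated data. Libraries of a group differed by more than counting noise (chi-square per degree of freedom 8.53 to 28.9), so no libraries were merged as 1. The labels do not say that replicate numbers pair the mice, and the fit did not pair them. Deviations of same-numbered MAN@SKI II and Model libraries correlated at -0.02, 0.03 and -0.04, and those of the others at -0.05 to 0.07. With n = 3 each these values cannot exclude a pairing. Of 94 named genes, near-identical transcripts were sought with BLAST 2.17.0 (at least 97% identity over 150 bases and 50% of the shorter transcript) and overlaps in the deposited coordinates, and their counts summed, an alternative chosen after seeing the data.

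Gene lists and compared genes were chosen with earlier results of these data known. Genes are named where DESeq2 or edgeR called them, for the 5 smallest p, for the 10 largest differences each way among non-overlapping genes of at least 5 CPM with an unadjusted p under 0.05 with and without MAN@SKI II 2, for up to 3 list members per direction, and for 8 genes of the pathway and synapse. The 10 largest each way were taken with unnamed genes, predicted Gm and Rik genes and pseudogenes left out. The labels call the libraries of a group biological replicates. Some named genes are not reported here.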

Additional observations from a re-analysis of the deposited data

How the results depend on the processing

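The 0 edgeR calls became 1 with library totals in place of TMM, 1 with no filter, 1 with the 6 BTBR libraries and 14 with 5 of them, MAN@SKI II 2 left out. DESeq2's size factors in edgeR, dropping mitochondrially encoded genes, a filter of 1 CPM in 3 libraries and limma-voom each called 0, and DESeq2 17. Whether replicate numbers pair the libraries is not given, and a fit with the replicate number as a block called 1, Mir8114. Leaving out each BTBR library in turn gave 12 to 72 DESeq2 calls, and leaving out each of the 9 libraries 0 to 9 edgeR calls, 347 to 794 genes higher and 308 to 906 lower at an unadjusted p under 0.05. The 72, 794 and 906 came without MAN@SKI II 3. The genes lower numbered 645 with no filter and 251 with the 6 BTBR libraries. Causes were not tested. An interval within 2-fold was found for 83.4% of all genes tested, and for 96.5% of those averaging at least 5 CPM. Wider intervals were thus more frequent under 5 CPM.

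Of single-gene values, 20 changed sign, 39 newly passed a threshold and 1753 did neither. Summed with partners, Ndor1 was 0.038, Cpt1b 0.18, Mir8114 -0.070, Pigb 0.046 and Rps6 0.034. Values near 0 crossed it with 1 library left out: Sphk1 ran over -0.093 to 0.28, Sgpl1 -0.13 to 0.091, S1pr1 -0.021 to 0.058 and Apoe -0.17 to 0.22. In the 5 BTBR libraries Sgpl1 was 0.092 and S1pr1 -0.0021, and Apoe was -0.020 with limma-voom.

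Of list medians, 30 values moved by more than the replicate spread and 785 did not. In the 5 BTBR libraries lipoproteins were at 0.072, NF-kB -0.11, ionotropic receptors -0.017, adhesion -0.029, interneurons -0.0032, pyramidal cells -0.062, mitochondrially encoded genes 0.12, signal recognition particle -0.036, sodium and calcium channels -0.034 and the strain list 0.025. With library totals microglia were at -0.082 and autophagy at -0.028. With each library left out in turn, the S1P list ran over -0.11 to 0.052, lipoproteins 2.7e-05 to 0.072, ERK feedback -0.15 to -0.032, NF-kB -0.33 to -0.021, ionotropic receptors -0.018 to 0.051, adhesion -0.030 to 0.085, vesicles -0.022 to 0.039 and interneurons -0.0038 to 0.088. Pyramidal cells ran over -0.062 to 0.070, microglia -0.094 to -0.030, mitochondrially encoded genes 0.12 to 0.42, signal recognition particle -0.10 to -0.037, Nrf2 -0.078 to 0.0056, clock -0.028 to 0.053, autophagy -0.026 to 0.011 and sodium and calcium channels -0.035 to 0.069.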

Other observations

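Some genes fell on 2 separate levels across the 9 libraries, by a rule chosen after seeing the data: a mean of at least 20 CPM, a gap of at least 0.6 on the log2 scale between the levels and a range of at most 0.35 within each. Of 8242 genes at that level, 78 met it, and in 53 of these at least 1 group held libraries on both levels. Fam168a held 219, 245 and 44.2 CPM in MAN@SKI II 1 to 3, against 213, 231 and 44.0 CPM in Model 1 to 3, and 51.5, 253 and 214 CPM in Con 1 to 3. Scd2, a fatty acid desaturase, held 388, 1304 and 1534 CPM in MAN@SKI II, against 388, 1546 and 375 CPM in Model, and 1573, 1448 and 1661 CPM in Con. Ywhah, with all MAN@SKI II libraries and Con 2 on its low level, was one of the 78. How reads shared between genes were counted was not tested.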
